A study of Mus musculus with 8 samples.

Results

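The clustered histone genes are the protein-coding genes of GENCODE M21 (mouse, mm10) whose symbols start with Hist1h, Hist2h, Hist3h or Hist4h. There were 67 of them among 21938 protein-coding genes on chromosomes 1 to 19, X and Y. Of these, 54 lay in the Hist1 cluster on chromosome 13, 10 in the Hist2 cluster on chromosome 3 and 2 in the Hist3 cluster on chromosome 11, and Hist4h4 stood alone on chromosome 6. The rule for members uses the symbols alone and no measured value.

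The study mapped EHMT2, a histone methyltransferase that places H3K9me2, by HA ChIP-seq in EHMT2-dTAG-mcherry mouse embryonic stem cells of a BL6/129 hybrid background. All cells, controls included, carried an edited Ehmt2 gene whose protein ends in an FKBP12-based degradation tag with HA epitopes, and which also expresses mCherry. Cells were treated for 24 h with DMSO or with dTAG, which directs the tagged protein to degradation, and were crosslinked with DSG and then formaldehyde. Every library thus comes from clonal, tagged cells, and no untagged cells were among the samples.

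The peak lists used here were 4. The C29F4 DMSO list was called on 2 merged ChIP libraries made with the HA antibody C29F4, and held 11010 peaks. A separate experiment with the HA antibody ab9110 gave 1 list of 40816 peaks in DMSO, 1 of 16324 peaks after dTAG, and 1 of 2050 peaks in the dTAG input, which is chromatin without immunoprecipitation. The mean fragment coverage recovered from the peak values was 3.64, 2.11, 1.23 and 0.978 in this order. With 1 list per condition there was no replicate check, so no difference between lists was tested. Intervals are exact (Clopper-Pearson) 95% binomial intervals and cover counting error only, and neighbouring genes often shared a peak, so genes were not independent.

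Clustered histone genes encode the replication-dependent core histones H2A, H2B, H3 and H4 and the linker histone H1, which package new DNA in S phase. Most are short, lack introns and end in a conserved stem-loop in place of a poly(A) tail. The stem-loop is bound by SLBP and guides 3′ end cleavage. Their transcription is organised around NPAT in the histone locus body, and many H2A and H2B genes are transcribed divergently from a shared promoter region.

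The stem-loop is shown first because it is the sequence feature that the members share and that was not used to choose them. A hairpin of 16 bases, with a stem of 6 base pairs opening with GG and a loop opening with TTT, was found within 200 bases after the stop codon in 63 of 67 members (94.0%) and in 9 of 21871 other protein-coding genes (0.0412%). It started 22 to 59 bases after the stop codon, with a median of 31. The 6 versions, read from GRCm38.p6 in the sense of the gene, are printed with the stem in capitals and the loop in lower case.
Version of 41 members, among them 6 Hist2 genes: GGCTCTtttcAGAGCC
Version of 9 members, such as Hist1h2bl and Hist1h1t: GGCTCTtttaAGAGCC
Version of 8 members, all H4 genes and Hist4h4 among them: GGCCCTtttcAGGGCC
Version of Hist1h4i and Hist2h4: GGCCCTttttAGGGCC
Version of Hist1h4j and Hist1h4b: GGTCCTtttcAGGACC
Version of Hist2h2ac: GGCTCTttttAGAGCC
The H4 genes with a match used stems that no other class used. The pattern was not found in Hist1h2an, Hist1h3g, Hist1h4a and Hist2h2be, which says only that these letters were not in the window searched.

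Promoters of 3 genes are shown as examples of a strong peak, a divergent pair and a gene with no peak. Each is the RefSeq sequence (GRCm38.p6) from 250 bases before to 50 bases after the gene start, in the sense of the gene, with ATTTGCAT (the octamer bound by OCT factors), TATAAA and CCAAT in capitals on either strand. Hist1h4h had the highest fold after dTAG and none of these letters. Hist1h2bk shares its upstream region with the divergent Hist1h2ah. Hist2h2ac lies in the Hist2 cluster, where no list had a peak.
Hist1h4h, chr13:23530794-23531093, plus strand: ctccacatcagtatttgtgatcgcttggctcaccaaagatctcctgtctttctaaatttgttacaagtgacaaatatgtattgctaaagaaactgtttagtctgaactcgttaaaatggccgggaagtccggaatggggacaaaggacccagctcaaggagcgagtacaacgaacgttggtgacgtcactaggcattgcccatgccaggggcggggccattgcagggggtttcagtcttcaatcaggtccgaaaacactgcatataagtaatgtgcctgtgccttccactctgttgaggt
Hist1h2bk, chr13:22035571-22035870, plus strand: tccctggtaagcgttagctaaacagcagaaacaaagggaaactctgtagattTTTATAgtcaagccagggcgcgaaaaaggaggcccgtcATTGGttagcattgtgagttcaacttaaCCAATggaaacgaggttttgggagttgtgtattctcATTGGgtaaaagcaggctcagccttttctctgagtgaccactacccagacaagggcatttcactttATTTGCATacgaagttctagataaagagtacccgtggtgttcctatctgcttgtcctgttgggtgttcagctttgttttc
Hist2h2ac, chr3:96220831-96221130, minus strand: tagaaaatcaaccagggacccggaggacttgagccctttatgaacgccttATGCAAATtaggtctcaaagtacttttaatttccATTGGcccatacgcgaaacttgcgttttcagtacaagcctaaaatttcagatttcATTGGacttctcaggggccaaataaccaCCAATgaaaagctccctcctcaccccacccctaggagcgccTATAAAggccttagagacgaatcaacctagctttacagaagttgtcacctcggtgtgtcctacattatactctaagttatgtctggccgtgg

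RefSeq promoters were matched for 62 of 67 members. The octamer was present in 14 of them (22.6%) against 1.80% of 16655 other promoters, in 7 of 18 H2A and 7 of 16 H2B promoters and in no H1, H3 or H4 promoter. In each H2A promoter ATTTGCAT read on the strand opposite to the gene, and in each H2B promoter on the strand of the gene. The pairs Hist1h2ah and Hist1h2bk, Hist1h2ae and Hist1h2bg, and Hist1h2aa and Hist1h2ba each shared the same site. It was counted for both genes, so the 14 promoters hold fewer separate sites. CCAAT was present in 53 of 62 members (85.5%) against 42.2%, in every matched H1, H2A, H2B and H3 promoter but in 3 of 12 H4 promoters. TATAAA was present in 56.5% of members against 14.5% of others. The Hist2 promoters held these letters as well, CCAAT in 8 of 8 and the octamer in 2 of 8.

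The ab9110 lists held peaks at most clustered histone genes, in DMSO and after dTAG alike, while the C29F4 list held 1. A gene was counted when a peak overlapped its body extended by 1 kb on each side by at least 1 bp. With C29F4, 1 of 67 members had a peak (1.49%, interval 0.0378 to 8.04%) against 10.4% of all protein-coding genes. With ab9110 in DMSO, 49 of 67 had a peak (73.1%, 60.9 to 83.2%) against 43.2%. With ab9110 after dTAG, 51 of 67 had a peak (76.1%, 64.1 to 85.7%) against 40.8%. In the dTAG input, 3 of 67 had a peak (4.48%, 0.933 to 12.5%) against 4.04%. The ab9110 shares of the members were thus above the share of all genes in both treatments, and the C29F4 and input intervals of the members covered or lay below it.

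Clustered histone genes are short, with a median body of 539 bp against 17425 bp over all protein-coding genes, which gives a peak less room to overlap. Among the 1588 protein-coding genes under 2 kb, 1.07% had a C29F4 peak, 13.9% an ab9110 DMSO peak, 14.6% an ab9110 dTAG peak and 0.504% an input peak. The 2 kb limit was chosen after the values were seen. Beside genes of like length, the distance between the members and the background in the ab9110 lists was wider, and the C29F4 interval of the members included the short-gene share. The input interval of the members, 0.933 to 12.5%, also lay above the short-gene share. The no-antibody list thus differed in the same direction, on 3 genes with 2 peaks between them. Of these 3, Hist1h2be has a body of 37455 bp, so it is not of like length, and it was also the member with the C29F4 peak.

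The DMSO share rested on weaker peaks than the dTAG share. Of 47 distinct DMSO peaks in the members' windows, 17 had a q-value above 0.01, against 5 of 45 dTAG peaks. Such peaks were common in both whole lists. A −log10 q of 1.96, a q-value just above 0.01, stood at percentile 37.9 of all DMSO peaks. After dTAG, a −log10 q of 1.97 stood at percentile 39.0. The DMSO peaks at members were thus not weak for their list, and few dTAG peaks at members were weak for theirs. With peaks of q-value under 0.01 alone, 53.7% of members had a DMSO peak and 73.1% a dTAG peak, against 32.4% and 31.5% of all protein-coding genes. With DMSO pileups scaled to the coverage of the dTAG list, 28.4% of members had a DMSO peak, against 17.2% of all genes. Cut to the 11010 strongest peaks, the DMSO list reached 25.4% of members and 17.8% of all genes, and the dTAG list 76.1% of members and 33.3% of all genes.

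**Figure D1:**
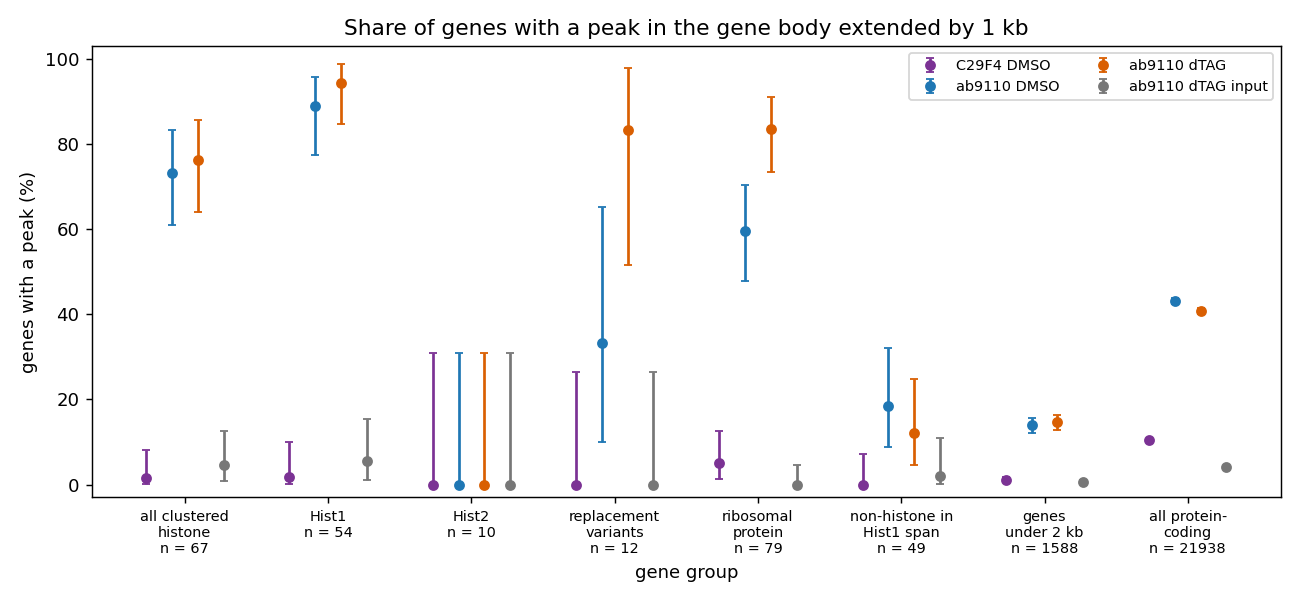
Share of genes with a peak (y axis, percent) by gene group (x axis) in each of the 4 lists, with exact 95% binomial intervals as bars. The Hist1 genes sit at 88.9% and 94.4% in the ab9110 DMSO and dTAG lists, while the 10 Hist2 genes sit at 0 in every list.

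The clusters differed. In Hist1, 48 of 54 genes had an ab9110 DMSO peak (88.9%, 77.4 to 95.8%), 51 an ab9110 dTAG peak (94.4%, 84.6 to 98.8%), 3 an input peak and 1 a C29F4 peak, and every Hist1 gene had a peak in at least 1 ab9110 ChIP list. In Hist2, 0 of 10 genes had a peak in any list (exact interval 0 to 30.8%). The nearest ab9110 DMSO peak lay 57286 bp from Hist2h2bb and 107110 bp from Hist2h2ab, the H2B and H2A genes at either end of the cluster. No list had a peak in the 210 kb of chromosome 3 between positions 96105031 and 96314727, which enclose all Hist2 genes. The authors removed reads in high-signal blacklist regions, and whether such regions lie in this stretch was not tested. Neither Hist3h2ba nor Hist3h2a had a peak. Hist4h4, an H4 gene, had an ab9110 DMSO peak alone, with a fold of 2.98 and a summit 92 bp past the start codon.

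The Hist2 genes resembled the Hist1 genes in some sequence features and not in others. The stem-loop was found in 9 of 10 Hist2 and 51 of 54 Hist1 genes. TATAAA was present in 37.5% of the matched Hist2 and 60.8% of the matched Hist1 promoters, and the median coding identity to the nearest other member was 94.0% and 98.4%. Median GC content of the window was 51.9% in Hist2 and 45.8% in Hist1, against 45.1% over all protein-coding genes. The median observed-over-expected CpG ratio was 0.752 and 0.637, against 0.234 over all protein-coding genes. Repeat-masked bases made up a median of 7.96% of Hist2 windows and 11.9% of Hist1 windows, against 23.2% over all genes. How these features bear on peak calling was not tested.

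Within Hist1, most genes of each of the 5 histone classes had a peak in each ab9110 ChIP list. Peaks in DMSO and after dTAG were present at 5 and 5 of 6 H1 genes, 11 and 12 of 13 H2A genes, 14 and 14 of 15 H2B genes, 8 and 9 of 9 H3 genes, and 10 and 11 of 11 H4 genes. The intervals of the 5 classes overlapped in each list, from 35.9 to 99.6% for H1 in DMSO to 71.5 to 100% for H4 after dTAG. Differences between classes were not tested, and intervals this wide could not show that the classes are alike.

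The Hist1 genes fell into 4 blocks separated by more than 100 kb. All 18 genes of the block at chr13:21715763-21837530, from Hist1h2bl to Hist1h2br, had a peak in both ab9110 ChIP lists, as did the 5 genes at chr13:22035164-22043676, from Hist1h2ah to Hist1h2bj. Of 29 genes at chr13:23531050-23764406, from Hist1h4h to Hist1h1a, 23 had a DMSO peak and 28 a dTAG peak. The pair Hist1h2ba and Hist1h2aa at chr13:23933773-23934851 had DMSO peaks and no dTAG peak. Of 49 other protein-coding genes in the Hist1 span, many of them vomeronasal receptor genes, 9 had a DMSO peak (18.4%, 8.76 to 32.0%) and 6 a dTAG peak (12.2%, 4.63 to 24.8%).

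**Figure D2:**
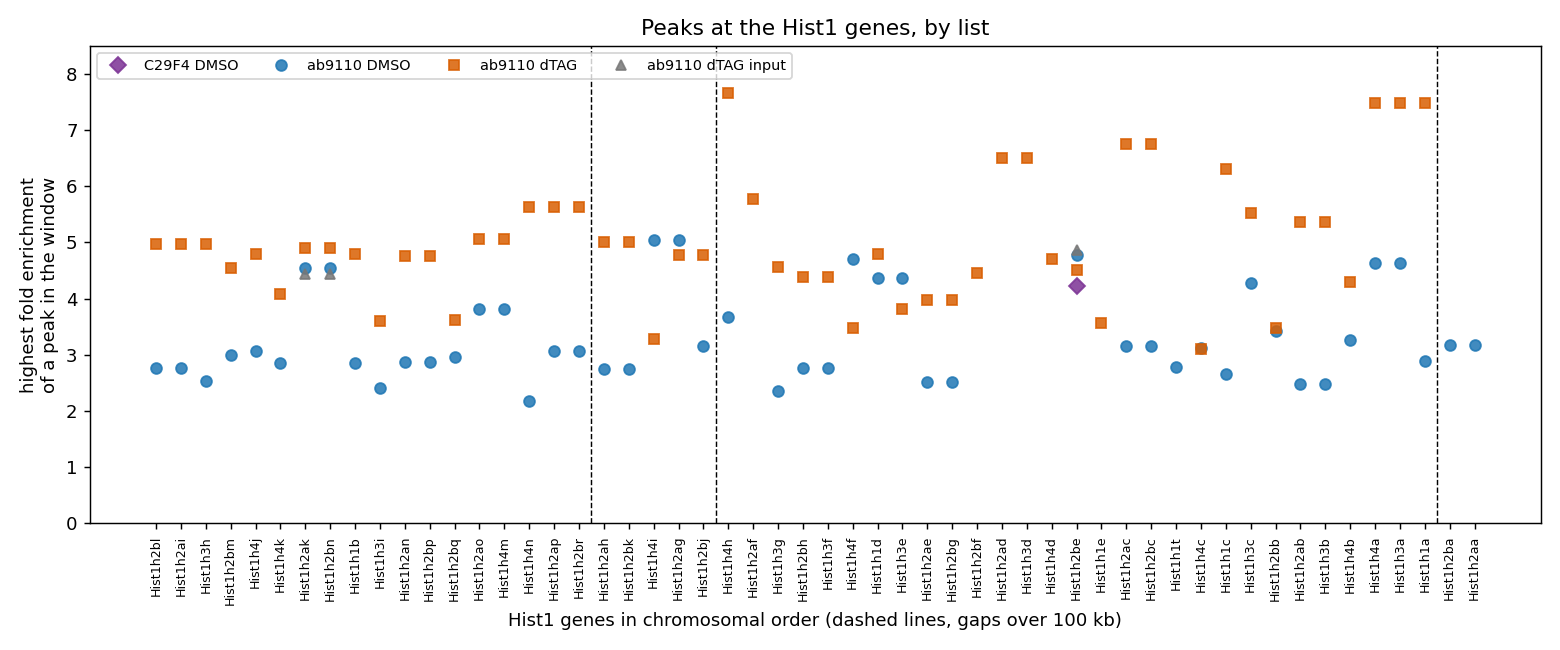
Highest fold enrichment of a peak in the window (y axis, no unit) for each of the 54 Hist1 genes in chromosomal order (x axis), by list; a missing point is a gene with no peak, and neighbouring genes at the same height mostly share 1 peak. Folds of the dTAG list reach 7.67 at Hist1h4h, and the single C29F4 point is at Hist1h2be.

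Fold enrichment is the authors' ratio of fragment pileup to local background at the summit, with 1 added to each. Folds of lists of different depth are set side by side without a test. In DMSO the highest fold, 5.05, came from 1 peak of 858 bp shared by the windows of Hist1h4i and Hist1h2ag, an H4 and an H2A gene. Its summit held 30 fragments and lay 18 bp past the start codon of Hist1h4i. After dTAG the peak at the same place had a fold of 3.28 and 19 fragments at its summit. Hist1h4f, an H4 gene, had a fold of 4.71 in DMSO and 3.48 after dTAG. These H4 genes were among the 6 of 45 genes with both peaks whose fold was lower after dTAG, the others being Hist1h2ag, Hist1h3e, Hist1h2be and Hist1h4c.

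After dTAG the highest fold was at Hist1h4h, an H4 gene, with 7.67 from 23 fragments at a summit 22 bp past its start codon. In DMSO this gene had 2 peaks, the stronger with a fold of 3.68 and 27 fragments. The windows of Hist1h4a and Hist1h3a, an H4 and an H3 gene, shared a DMSO peak with a fold of 4.63 and its summit at Hist1h3a, and the DMSO peak at Hist1h4a itself had a fold of 2.65. After dTAG 1 peak of 2861 bp with a fold of 7.49 and its summit in Hist1h4a ran over both and reached the window of the H1 gene Hist1h1a, whose own DMSO fold was 2.89. The divergent Hist1h2ac and Hist1h2bc shared a dTAG peak with a fold of 6.76 and a DMSO peak with a fold of 3.16, with 23 fragments at both summits. The fragment number was thus the same here, at a lower mean coverage after dTAG.

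Over all members with a peak, the highest fold per gene ran from 2.17 at the H4 gene Hist1h4n to 5.05 in DMSO, with a median of 3.06. After dTAG it ran from 3.11 at the H4 gene Hist1h4c to 7.67, with a median of 4.80. More than 1 peak was present in the windows of 19 members in DMSO and 21 after dTAG.

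The linker histone genes are described as a whole class, by the peaks whose summit was nearest to their own start codon. Hist1h1a had folds of 2.89 in DMSO and 4.01 after dTAG, the peak of 7.49 in its window having its summit in Hist1h4a. Hist1h1d had folds of 3.49 and 4.80, the DMSO peak of 4.37 in its window having its summit in Hist1h3e. Hist1h1c had folds of 2.66 and 6.30, and Hist1h1b had folds of 2.86 and 4.79. Hist1h1e had a dTAG peak alone, with a fold of 3.56, and the testis gene Hist1h1t a DMSO peak alone, with a fold of 2.79. Each of the 4 genes with both peaks had the higher fold after dTAG, which was not tested. At Hist1h1c, which is not part of a divergent pair, the DMSO summit held 29 fragments at 493 bp past the start codon and the dTAG summit 23 fragments at 565 bp.

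The H3 genes of Hist1 all had a dTAG peak, with highest folds in the window from 3.61 at Hist1h3i to 7.49 at Hist1h3a, whose peak had its summit in Hist1h4a. Their DMSO folds ran from 2.35 at Hist1h3g to 4.63 at Hist1h3a, and Hist1h3d had no DMSO peak. The H4 genes all had a dTAG peak too, from 3.11 at Hist1h4c to 7.67 at Hist1h4h, and Hist1h4d, with a dTAG fold of 4.70, had no DMSO peak. At Hist1h4k the DMSO summit held 29 fragments and the dTAG summit 14, with folds of 2.85 and 4.09. At Hist1h4c they held 25 and 14, with folds of 3.12 and 3.11.

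Hist1h2be, an H2B gene, was the member with a C29F4 peak. That peak, chr13:23584908-23585353, had a fold of 4.22 and 59 fragments at its summit, 842 bp past the start codon and outside the coding sequence. It overlapped an ab9110 DMSO peak with a fold of 4.77 and 27 fragments and an ab9110 dTAG peak with a fold of 4.51 and 15 fragments. GENCODE gives Hist1h2be a body of 37455 bp, against 532 bp for the median Hist1 gene. Its input peak, with a fold of 4.86, lay 11282 bp upstream of the start codon and overlapped no ChIP peak. The other input peak, with a fold of 4.44 and 9 fragments, lay at the divergent pair Hist1h2ak and Hist1h2bn and overlapped ab9110 peaks with folds of 4.55 in DMSO and 4.91 after dTAG. Without ChIP peaks that overlap an input peak, 47 members kept a DMSO peak and 49 a dTAG peak.

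The same genes were marked in both ab9110 ChIP lists. Of the 49 members with a DMSO peak, 45 also had a dTAG peak (91.8%, 80.4 to 97.7%), against 64.7% of all genes with a DMSO peak. A dTAG peak without a DMSO peak was present at 6 members (8.96%) against 12.9% of all genes, and the reverse at 4 members (5.97%) against 15.2%. At the level of peaks, 38 of the 47 DMSO peaks at members overlapped a dTAG peak (80.9%, 66.7 to 90.9%), against 18.9% of all 40816 DMSO peaks. Conversely, a DMSO peak was met by 34 of the 45 dTAG peaks at members (75.6%, 60.5 to 87.1%) and by 46.8% of all 16324 dTAG peaks. The peaks at clustered histone genes were therefore mostly present whether or not the cells had been treated to degrade EHMT2. The remaining level of tagged protein is not measured by these lists.

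The members with a DMSO peak alone were Hist1h1t, Hist1h2ba, Hist1h2aa and Hist4h4. The first 3 are known as testis-specific histone genes, a grouping made after the values were seen. Hist1h1t had a DMSO fold of 2.79 from 12 fragments. The highest fold at Hist1h2ba and Hist1h2aa was 3.17, also from 12 fragments. These pileups were near the lowest among the DMSO peaks at members, which ranged from 11 to 30 fragments, whereas the summit at Hist4h4 held 26. The 6 members with a dTAG peak alone were Hist1h2af, Hist1h2bf, Hist1h2ad, Hist1h3d, Hist1h4d and Hist1h1e, named after their values were seen. All 6 are in the block from Hist1h4h to Hist1h1a, and 4 of them are neighbours. Their dTAG folds ran from 3.56 at Hist1h1e, a linker histone gene, to 6.51 at Hist1h2ad and Hist1h3d, which shared that peak.

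Relative to the mean coverage of its own list, the highest summit pileup was larger after dTAG at 42 of the 45 members with both peaks (93.3%), against 74.2% of all 6127 genes with both. The exceptions among the members were Hist1h4k, Hist1h2be and Hist1h4c. The median log2 ratio of dTAG to DMSO was 0.62 at members and 0.38 over all genes with both peaks. Genes under 2 kb stood between, with 121 of 140 larger after dTAG (86.4%) and a median log2 ratio of 0.48. The lowest −log10 p that entered the lists was 3.85 in DMSO and 4.28 after dTAG. At lower coverage a peak needs more pileup relative to coverage to be called, so the calling rule can bear on this ratio. Its part in the difference was not tested.

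**Figure D3:**
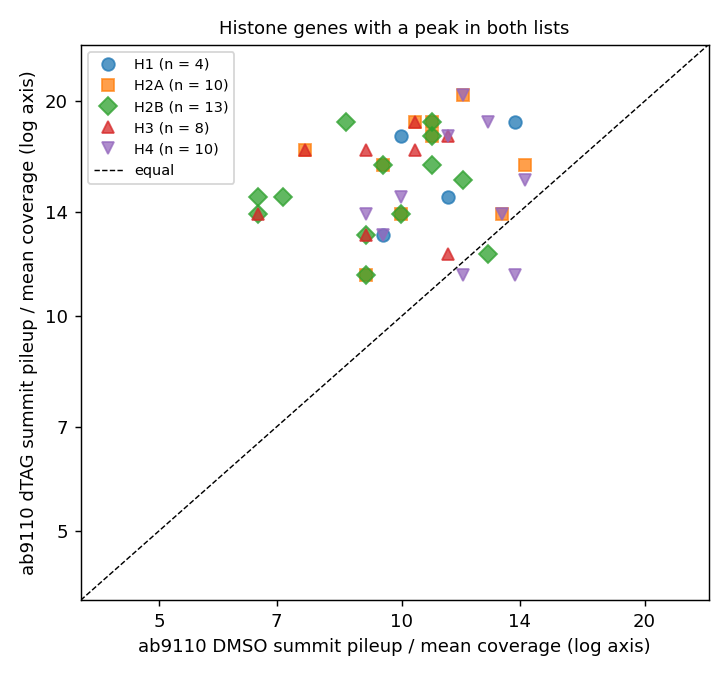
Highest summit pileup divided by the mean coverage of the list, in ab9110 DMSO (x axis, log) and ab9110 dTAG (y axis, log), for the 45 clustered histone genes with a peak in both lists, by histone class; the dashed line marks equal values and points of genes that share peaks coincide. Of the 45 genes, 42 lie above the line.

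Most summits lay inside the genes. Of the 47 DMSO peaks, 35 had their summit in the coding sequence of a member (74.5%), and the median summit was 143 bp past the nearest start codon. Of the 45 dTAG peaks, 38 had their summit in a coding sequence (84.4%), with a median of 164 bp past the start codon. A summit before the nearest start codon was seen in 6 DMSO peaks and 1 dTAG peak. Peaks at members were wide, with a median of 565 bp in DMSO against 429 bp over the list, and 895 bp after dTAG against 562 bp. Their median fold was below that of the list in DMSO, 2.99 against 3.28, and above it after dTAG, 4.56 against 3.78. The local background at member peaks was a median of 2.73 times the mean coverage in DMSO and 2.41 times after dTAG, against 1.53 and 1.81 over the lists. By q-value the median member peak stood at percentile 59.0 of the DMSO list and 79.4 of the dTAG list.

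**Figure D4:**
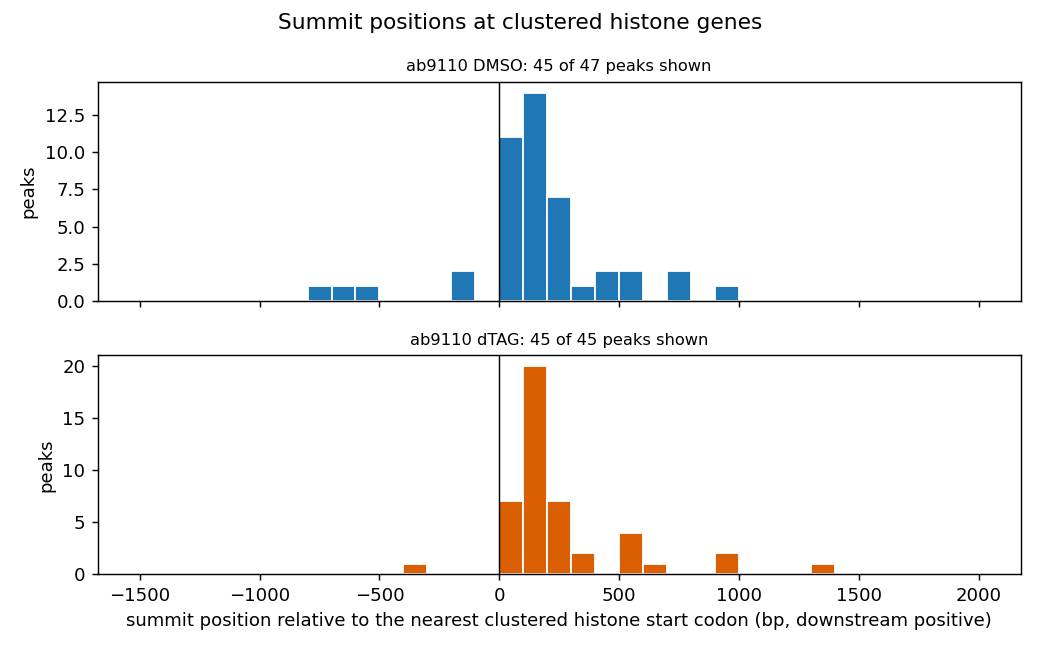
Position of peak summits relative to the nearest start codon of a clustered histone gene (x axis, bp, positive downstream) and number of peaks in bins of 100 bp (y axis), for ab9110 DMSO and ab9110 dTAG. The plot shows 45 of 47 DMSO peaks and 45 of 45 dTAG peaks, and most summits stand just to the right of the start codon.

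There were 12 divergent H2A and H2B pairs, with 278 to 334 bp between their start codons. At this distance windows extended by 1 kb overlap, so a peak at one gene of a pair nearly always counted for both, and this shared count says nothing of the pair. A peak covered both start codons in 1 of 12 pairs in DMSO, Hist1h2ak and Hist1h2bn, and in 6 of 12 after dTAG. Hist1h2bq and Hist1h2ao held 3 separate DMSO peaks. At Hist1h2ah and Hist1h2bk, whose shared upstream region is printed in part as the Hist1h2bk promoter, the dTAG peak spanned chr13:22034701-22036635 and both start codons with a fold of 5.01. The DMSO peak there had a fold of 2.75 and began inside the printed promoter. Of 15 summits of shared DMSO peaks, 10 lay in the H2B gene and 2 in the H2A gene, and of 14 after dTAG, 9 lay in the H2B gene and 5 in the H2A gene. No list had a peak at the Hist2 pair Hist2h2ac and Hist2h2be.

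Near-identical copies limit where a peak can be placed. The median coding sequence was 98.4% identical to that of the nearest other member, and 8 members had a coding sequence identical to another. Hist1h2bq and Hist1h2br, H2B genes with identical coding sequences, had 100% and 96.5% of the 100-base words of their windows present elsewhere among the members, and reads from one cannot be told from the other. Their peaks are uncertain, with folds of 2.96 and 3.06 in DMSO and 3.62 and 5.63 after dTAG. The same limit holds for the H2A genes Hist1h2ao and Hist1h2ap, identical in coding sequence and each at 95.8% repeated words. It also holds in part for the identical H4 genes Hist1h4m and Hist1h4n, at 59.6% and 58.9%. The lowest DMSO fold, 2.17 at Hist1h4n, is thus uncertain as well. Of the 26 Hist1 genes with at least 10% repeated words, 24 had a DMSO peak and 26 a dTAG peak. Of the 28 Hist1 genes with less, 24 had a DMSO peak and 25 a dTAG peak. Of the 4 Hist1 genes with no repeated word, 3 had a DMSO peak and 3 a dTAG peak. Repeats were sought among the members' windows alone, and a window under 10% can still hold repeated words in its coding sequence. Whether reads were misplaced was not tested.

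Other genes of histone supply, all outside the clusters, are described by 3 lists. Of 12 histone variant genes (replacement variants), 4 had a DMSO peak (33.3%, 9.92 to 65.1%) and 10 a dTAG peak (83.3%, 51.6 to 97.9%). The highest dTAG folds among them were 4.96 at H2afj, 4.93 at H2afx (the variant phosphorylated at DNA breaks) and 4.56 at H1f0, a linker variant, none of which had a DMSO peak. Of 13 genes for histone gene transcription and 3′ end processing, 7 had a DMSO peak (53.8%, 25.1 to 80.8%). A dTAG peak was present at 11 of them (84.6%, 54.6 to 98.1%). Over all protein-coding genes the shares were 43.2% and 40.8%, and the DMSO interval covered the first. Sympk, a scaffold of the cleavage complex, had folds of 3.04 in DMSO and 5.81 after dTAG. Zfp473, a zinc finger protein of the processing complex, had folds of 3.03 and 4.77. Npat, the coactivator of the histone locus body, had a dTAG peak with a fold of 4.34 and no DMSO peak.

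Histone chaperones escort histones to chromatin. Of 11 chaperone genes, 6 had a DMSO peak (54.5%, 23.4 to 83.3%) and 8 a dTAG peak (72.7%, 39.0 to 94.0%). Both intervals covered the shares over all protein-coding genes, 43.2% and 40.8%. C29F4 peaks were present at 2 of 11 (18.2%, 2.28 to 51.8%), an interval that covered the 10.4% of all protein-coding genes. They were at Asf1a, a chaperone of H3 and H4, with a fold of 5.01, and at Hat1, which acetylates new H4, with a fold of 3.96. Input peaks, without antibody, were also present at 2 of 11 (18.2%) against 4.04% of all genes. These were at Rbbp4, with a fold of 5.21, and Asf1b, with a fold of 3.90. Asf1a also had ab9110 folds of 2.79 in DMSO and 4.45 after dTAG, and Hat1 had a DMSO fold of 4.44 and no dTAG peak. The highest dTAG folds were 5.69 at Nasp, a chaperone of H3 and H4 and of linker histones, 5.36 at Hira, a chaperone of H3.3, and 5.24 at Atrx, which acts in H3.3 deposition. Nasp and Atrx had DMSO folds of 3.68 and 3.22, and Hira had no DMSO peak. These genes are longer than the clustered histone genes, with medians of 5675 bp for variants, 29666 bp for the transcription and processing genes and 26890 bp for chaperones.

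Gene families of other kinds gave further reference points, though their median bodies of 3243 bp for ribosomal protein genes and 6002 bp for olfactory receptor genes were longer than those of the members. Of 79 ribosomal protein genes, 47 had a DMSO peak (59.5%, 47.9 to 70.4%), 66 a dTAG peak (83.5%, 73.5 to 90.9%), 4 a C29F4 peak and 0 an input peak (exact interval 0 to 4.56%). Of 40 ribosomal protein genes with both ab9110 ChIP peaks, 35 had the larger relative pileup after dTAG (87.5%), so this was not particular to histone genes. Of 1135 olfactory receptor genes, which also stand in clusters, 87 had a DMSO peak (7.67%) and 29 a dTAG peak (2.56%). Of those 87 genes, 11 also had a dTAG peak (12.6%, 6.48 to 21.5%). Of the ribosomal protein genes with a DMSO peak, 85.1% (71.7 to 93.8%) also had a dTAG peak, as did 4 of 4 variant genes, 6 of 7 transcription and processing genes and 5 of 6 chaperone genes. A high share of DMSO genes with a dTAG peak was thus seen in these groups as well as in the clustered histone genes.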

How the data were processed

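HA ChIP-seq libraries and inputs were grouped by antibody, treatment and library kind as labelled. Per the study's methods, the authors aligned reads to mm10 with STAR, assigning multimapping reads to 1 place, removed duplicates with Picard 2.26.0 and high-signal blacklist reads, called peaks with MACS2 2.2.6 on fragments and kept q-values under 0.05. Whether a control entered the calls is not given in the sources used here. Each deposited list holds the authors' fold (ratio to background), −log10 p, −log10 q and an integer score, which was not used. The C29F4 list merges its replicates. Not analysed here were the inputs of C29F4 and ab9110 DMSO and lists of single C29F4 replicates.

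Peaks were overlapped (at least 1 bp) with gene bodies extended by 1 kb. Summit pileup was recovered from the deposited fold and p-value, taking fold as a ratio with 1 added to pileup and to background. The lowest background gave the mean coverage. Overlap was checked against bedtools 2.31.1 and pileup recovery was tested on simulated data. Sequences came from GRCm38.p6. Python 3.11.15, pandas 2.3.3 and scipy 1.17.1 were used. Soft-masked bases were counted as repeat-masked.

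Named genes were those with a C29F4 or input peak, the 6 highest folds in each ab9110 ChIP list, Hist2, Hist3 and Hist4 genes with a ChIP peak and, per pathway list, those with a C29F4 peak and up to 3 highest folds. Others were named after their values were seen. The members and lists were chosen with earlier results of these data known. Ribosomal protein genes exclude kinases and binding proteins. Alternatives concerned the window, q-value, overlap rule, list size, depth, input peaks and merged loci.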

Additional observations from a re-analysis of the deposited data

How the results depend on the processing

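Of 55 values recomputed under alternative windows, thresholds, overlap rules and list sizes, 49 stayed within the interval of the reported share and 6 moved outside it. The share of clustered histone genes with an ab9110 DMSO peak was 53.7% at a q-value under 0.01, 40.3% at a q-value under 0.001, 25.4% with ChIP lists of equal size and 28.4% with pileups scaled to the dTAG coverage. These settings keep fewer peaks by construction, and over all protein-coding genes they gave 32.4%, 23.2%, 17.8% and 17.2%. The C29F4 share was 0 within 1 kb of transcription starts, and the input share was 0 at a q-value under 0.001. The ab9110 dTAG share ranged from 68.7% to 79.1% over its alternatives, and the share of DMSO genes that also had a dTAG peak from 87.8% to 96.3%. With overlapping windows merged into 34 loci, 27 had a DMSO and 25 a dTAG peak. No paired analysis was possible because the C29F4 replicates were merged into 1 list and each ab9110 list came from 1 library, and for the same reason no replicate could be left out. Depth limits the input and dTAG lists most.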

Other observations

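Of 3 annotated histone pseudogenes, which are outside the 67 genes, 2 had a peak in their window. Hist1h2aj, an unprocessed pseudogene in the first Hist1 block, had 2 ab9110 DMSO peaks in its window, the stronger with a fold of 2.99, and a dTAG peak with a fold of 4.54. Hist1h2al, a processed pseudogene on chromosome 13 at positions 51202727 to 51203065, far outside the Hist1 cluster, had a DMSO peak with a fold of 2.57 and a dTAG peak with a fold of 3.29. Hist3h2bb-ps had no peak in any list. Their similarity to the intact genes leaves the placement of reads uncertain.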
